A study of Mus musculus with 205 samples.

Results

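The samples described here are the mouse cell samples that received no editor: the empty-vector controls against which mitochondrial DNA (mtDNA) editing was measured. They were chosen by their labels, and the rule takes every control entry of the screening table and of the table that collects the controls of the later experiments. It names 18 entries, of which 14 belong to a sample record, out of 205 samples in the series. The other 4 entries matched no sample record and entered no test. Of the 205 samples, 196 are mtDNA samples with values, made up of these 14 controls, 151 samples of edited cells and 31 mouse ear samples. In the whole series, DddA-derived cytosine base editors (DdCBEs) were used to write stop codons into the mtDNA genes of the mouse.

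The labels name NIH/3T3, a fibroblast line from mouse embryos, as the source of all 14 controls. For stable lines the methods name its derivative Flp-In-3T3, which carries a docking site for a transgene in its nuclear genome. By the methods, stable editor lines were kept under hygromycin B after integration of the vector, and the control line is not described separately. The stable Tandem controls had 1 sample each at 28, 35 and 42 d. The transient controls were 3 Tandem samples at 7 d, 3 2-plasmid-HHR samples at 7 d, 3 2-plasmid samples at 14 d and 2 samples of the first screen at 7 d. Tandem names the format in which both parts of the editor are made from a single plasmid through a T2A ribosome-skipping sequence. In the 2-plasmid format each part has a plasmid of its own, and HHR stands for a hammerhead ribozyme placed in the mRNA to lower expression. The titles call these samples WT, the field for the editor pair says empty, and the control table uses Empty for the Tandem samples and WT for the others. No source used here says which plasmid, if any, the samples named WT received. None of the 14 received an editor by its label. Legends of the study call its 2-plasmid samples at 14 d technical replicates in some places and biological replicates in others. They call the samples of the other formats biological replicates. For the 2-plasmid controls, the tests therefore measure a spread that may be technical.

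A DdCBE is a bacterial deaminase, split into inactive parts that DNA-binding TALE proteins bring together on the mtDNA, where it converts a C:G pair to T:A. Mammalian cells hold many copies of mtDNA, and a change present in a part of them is called heteroplasmy. A control without an editor still shows C:G-to-T:A changes, since heteroplasmy that the cells already carry, errors of the PCR and errors of sequencing are all read in the same way. The value analysed here is the study's off-target percentage, the C:G-to-T:A frequency averaged over the mtDNA, and in a control it is the background. In the study, off-target editing was also expressed as a fold over the controls, which makes this background the denominator of such a fold.

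The 14 controls came from 5 of the 6 sequencing runs of the series, named MS1 to MS5 and NS1 in the tables. Run MS5 held all 6 Tandem and stable Tandem controls, MS4 the 2-plasmid-HHR controls, NS1 the 2-plasmid controls, and MS1 and MS2 a screening control each. Mean coverage, the average number of reads over an mtDNA position, was 103 to 388 in MS5, 524 in MS2, 560 in MS1, 6440 to 18319 in MS4 and 31439 to 40402 in NS1. Format therefore changed together with run in every comparison of transient formats, and with the day in each comparison with the 2-plasmid format. Among the samples with a record, run, format and day cannot be told apart there. Of the entries with no sample record, 3 are described as transient Tandem at 7 d in run NS1, and the table gives them 0.0342% to 0.0348%. They lay above the 2-plasmid controls of that run, at 1.44 to 1.46 times the mean of those controls. The mean of the Tandem controls of MS5, with the same format and day in the description, was 4.51 to 4.58 times these entries. They are given as values only, with no test.

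Among the 3 transient formats with replicates, the background was lowest in the 2-plasmid controls, all from NS1, and it overlapped between the Tandem and the 2-plasmid-HHR controls. The 3 Tandem controls had an off-target percentage of 0.155%, 0.155% and 0.161%. The 3 2-plasmid-HHR controls had 0.140%, 0.142% and 0.170%. The 3 2-plasmid controls had 0.0240%, 0.0240% and 0.0235%. All 6 samples of Tandem and 2-plasmid-HHR lay above the 3 of 2-plasmid with a wide gap, while the Tandem values lay inside the range of the 2-plasmid-HHR values.

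The mean background was 0.157% ± 0.0033 in the Tandem controls, 0.151% ± 0.017 in the 2-plasmid-HHR controls and 0.0238% ± 0.00028 in the 2-plasmid controls (SD, n = 3 each). In plain terms, about 1 in 637 C:G base calls read as T:A in the Tandem controls, 1 in 664 in the 2-plasmid-HHR controls and 1 in 4195 in the 2-plasmid controls. The 3 formats differed by more than the spread between samples (exact permutation test over 1680 assignments of the 9 samples, p = 0.018), and 98.3% of the sum of squares lay between formats. Without the 2-plasmid controls this share was 9.11% (exact permutation test, p = 0.50), so the difference among the 3 formats rests on those controls. They were also the only ones of the 9 from NS1 and at 14 d, so it cannot be assigned to the format alone.

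**Figure D1:**
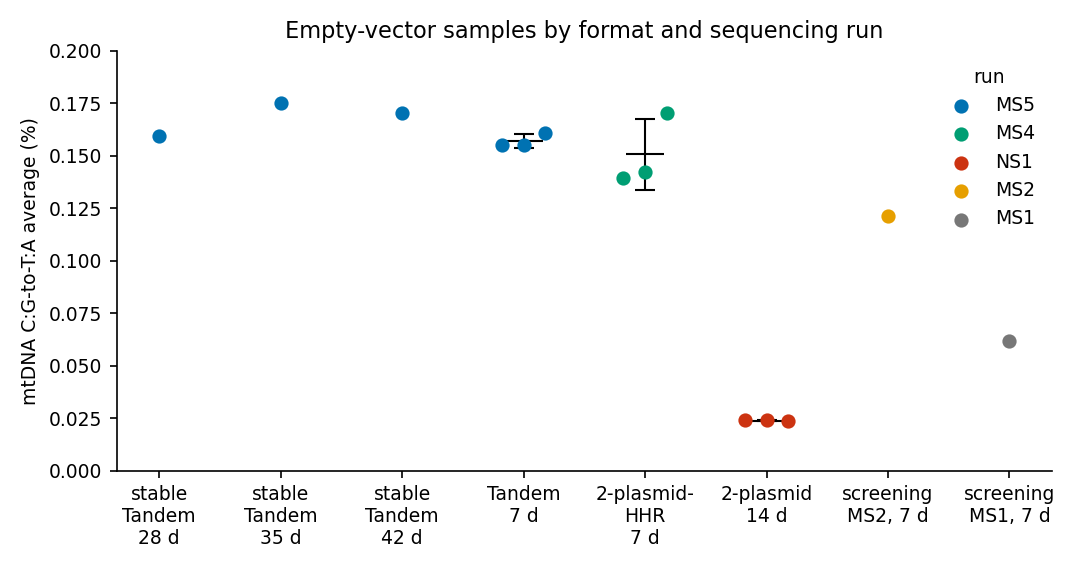
Average C:G-to-T:A percentage over the mtDNA (y axis) in each of the 14 empty-vector controls, by format and day (x axis), with colour for the sequencing run. Points are samples, and bars give the mean and SD where a format had 3 samples. The 9 points of MS5 and MS4 lie between 0.140% and 0.175%, those of NS1 between 0.0235% and 0.0240%.

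In pairs, the Tandem background exceeded the 2-plasmid background by 0.133 percentage points, a ratio of 6.58, in 3 of 3 samples (exact permutation test, two-sided, p = 0.10, the smallest that 3 against 3 samples allow, adjusted p over 3 pairs 0.15). The 2-plasmid-HHR background exceeded that of the 2-plasmid format by 0.127 percentage points, a ratio of 6.32, also in 3 of 3 samples (exact permutation test, p = 0.10, adjusted p = 0.15). The difference Tandem minus 2-plasmid-HHR was 0.0063 percentage points, a ratio of 1.04 (exact permutation test, p = 0.50, adjusted p = 0.50). That last difference is smaller than the SD of the 2-plasmid-HHR controls, and without single replicates it ranged from 0.00074 to 0.016 percentage points. It was largest without the third 2-plasmid-HHR replicate.

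The 2 screening controls shared the format of their experiment (2 plasmids), the day (7 d) and nearly the coverage, and came from different runs. The control of MS2 stood at 0.121% at a coverage of 524, and that of MS1 at 0.0616% at a coverage of 560. The MS2 value was 1.97 times the MS1 value, a difference of 0.0599 percentage points. With 1 sample in each run, this difference has no replicate check. Against the 2-plasmid controls of NS1, of the same format at 14 d, the screening controls were 5.09 times (MS2) and 2.58 times (MS1) the mean. The 5 controls of the 2-plasmid format without the ribozyme thus ranged from 0.0235% to 0.121% over 3 runs.

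The edited samples of those 2 screening runs did not differ in the same proportion. The 24 editor pairs of MS2 had a median off-target percentage of 0.285%, and the 16 pairs of MS1 a median of 0.268%, a ratio of 1.06, although the pairs themselves differ between the runs. Divided by the control of its own run, the median pair stood at 2.35-fold in MS2 and 4.35-fold in MS1. With the MS1 control as denominator, the MS2 median would be 4.63-fold, and with the MS2 control the MS1 median would be 2.21-fold. All 24 and all 16 pairs lay above either control.

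Stable Tandem controls were kept in culture for weeks and were sequenced in the run of the transient Tandem controls, so that for them the run is shared. Their off-target percentage was 0.159% at 28 d, 0.175% at 35 d and 0.170% at 42 d. The 3 transient Tandem controls at 7 d had 0.155% to 0.161%. The sample of 28 d fell inside the range of the transient controls, and those of 35 and 42 d lay above all 3, by 0.014 and 0.0096 percentage points over the highest.

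Over the 3 days the stable controls averaged 0.168%, against 0.157% in the transient Tandem controls, a difference of 0.0113 percentage points or a ratio of 1.07. The samples come from cells kept in culture and are not replicates of a day, so no test was made. The difference was 0.0079 without the 35-d sample and 0.0157 without the 28-d sample. The 42-d sample had the lowest coverage of all 14 controls, 103. The values did not rise at every step. At 42 d the value was 0.0046 percentage points below that at 35 d and 0.011 above that at 28 d. The drop from 35 d is smaller than the 0.0059 expected from counting reads at these coverages. The entry of MS5 with no sample record, described as stable Tandem at 49 d, had 0.180%. A course over days was not tested. By the methods, stable and transient editor samples also differed in the cells, the promoter and the selection. Where this holds for the controls, it cannot be told apart from the days in culture.

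Within a format, the controls of NS1 were the closest to each other and those of MS4 the farthest apart. The coefficient of variation was 2.13% in the Tandem controls, 11.2% in the 2-plasmid-HHR controls and 1.17% in the 2-plasmid controls, and the highest sample was 1.04, 1.22 and 1.02 times the lowest in these formats. In the 2-plasmid-HHR format this spread came from the third replicate, at 0.170%, while the first and second replicate differed by 0.0028 percentage points. Without the third replicate the mean of that format was 0.141%. The same replicate also had the lowest coverage of the 3, at 6440, against 18319 in the first and 9327 in the second, and the part of coverage in its value was not tested.

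The size of the counting error was estimated from coverage. In GRCm38, the build the study used, the mtDNA of 16299 bp holds 5989 C:G pairs. If all of them enter the average equally, coverage times this number gives the base calls behind a value, of which an expected 1050 were changed in the stable control of 42 d and 58109 in the first 2-plasmid control. The expected counting error was 0.0053 percentage points for that 42-d control, the largest of the 14, and 0.000099 for the third 2-plasmid control, the smallest. PCR copies are not independent molecules, so this error covers counting only.

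Set beside the SD between samples, counting error was of the same size in the Tandem controls only. There the SD was 1.14 times the counting error (0.0033 against 0.0029 percentage points). In the 2-plasmid-HHR controls the SD was 32.3 times the counting error (0.017 against 0.00052), and in the 2-plasmid controls 2.68 times (0.00028 against 0.000104). Several pairs of samples lay within it. The first and second 2-plasmid controls differed by 0.000030 percentage points and the first and second Tandem controls by 0.00010, below the counting error of either sample, but the members of each pair differ in coverage, and base counts by position were not analysed here. They were therefore kept as separate samples. Of the stable controls, 35 d and 28 d differed by 0.0155 percentage points at a counting error of 0.0039 for the difference, and 42 d and 35 d by 0.0046 at 0.0059.

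**Figure D2:**
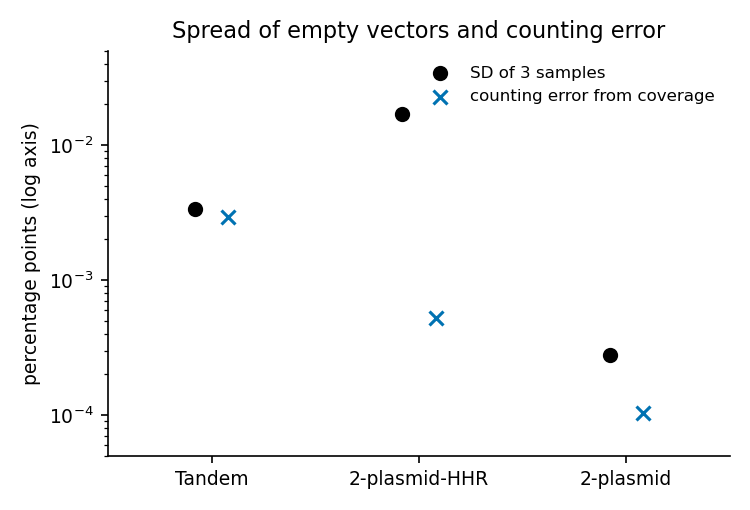
SD of the 3 empty-vector controls of a format (black circles) and the counting error expected from their coverage (blue crosses, root mean square of the 3 samples), in percentage points on a log axis. The SD and the counting error nearly coincide for Tandem (0.0033 and 0.0029) and lie far apart for 2-plasmid-HHR (0.017 and 0.00052).

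Background and coverage did not follow a common line. The 14 controls fall into separate groups of coverage, 8 at 103 to 560, 3 at 6440 to 18319 and 3 at 31439 to 40402, so no correlation was taken over all of them. The MS4 controls, at 6440 to 18319 reads, had backgrounds of 0.140% to 0.170%, above the 0.0616% of the MS1 control at 560 reads. The MS2 and MS1 controls, at 524 and 560 reads, differed 1.97-fold. High coverage went with a low background in NS1 and not in MS4.

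Among the 8 controls below 1000 reads, Pearson r between coverage and off-target percentage was -0.738 (exact permutation test, p = 0.034) and Spearman rho was -0.619 (exact permutation test, p = 0.11), for the single relation that was examined. Without the 2 samples farthest from the median coverage, the 42-d stable control and the MS1 control, r was -0.682 (exact permutation test, p = 0.13, n = 6). Within run MS5, the only one with 6 controls, r was -0.319 (exact permutation test, p = 0.55) and rho was -0.0857 (exact permutation test, p = 0.92). The sign was the same as over the 8 controls, the difference between the coefficients was not tested, and MS5 spans coverages of 103 to 388 only. Of its 6 controls, the 3 stable ones are not independent of each other.

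**Figure D3:**
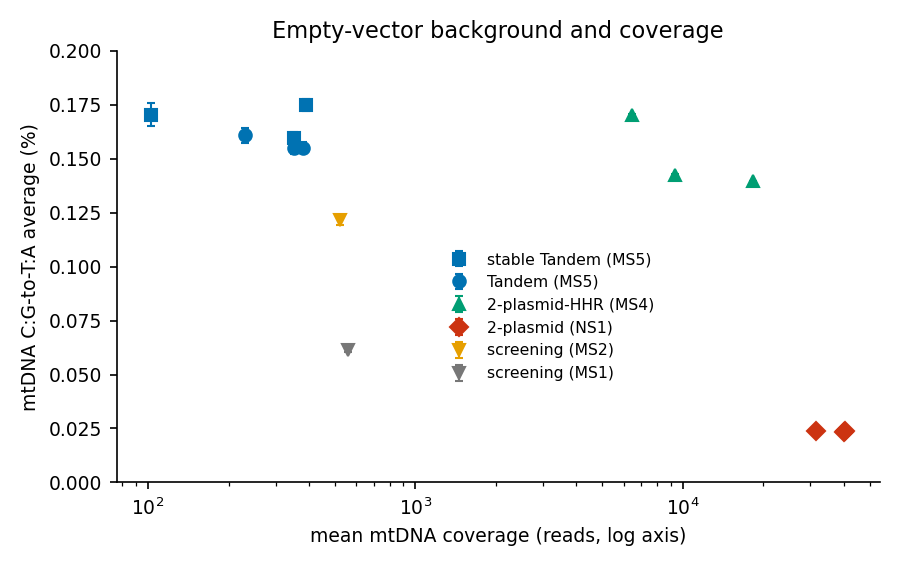
Average C:G-to-T:A percentage (y axis) against mean coverage in reads (x axis, log scale) for the 14 empty-vector controls, with colour for the run and marker for the format. Bars are the counting error expected from coverage, smaller than the marker in most samples. The MS1 and MS2 points lie nearly above each other at 560 and 524 reads, at 0.0616% and 0.121%.

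Mouse DNA from the same runs lay below the control in MS2, mostly within the controls in MS4 and mostly above them in MS5. Ear samples from animals born after injection of embryos with an Atp6 editor, and from their descendants, were sequenced in MS2, MS4 and MS5. In MS2 the control stood at 0.121% and the 14 ear samples of the first generation at 0.0909% to 0.116% (median 0.103%), all below it. In MS4 the 3 controls ranged from 0.140% to 0.170% and the 6 ear samples of the next generation from 0.146% to 0.180% (median 0.158%), of which 5 lay within the range of the controls. In MS5 the 6 controls ranged from 0.155% to 0.175% and the 11 ear samples of the later generations from 0.166% to 0.201% (median 0.183%), of which 3 lay within that range and 8 above it. Controls and ears were thus both lowest in MS2 and highest in MS5 among these 3 runs, by mean and median. A second deposited value of the ears, the average with a cutoff at 1%, had the opposite order, with medians of 0.0444% in MS2, 0.0419% in MS4 and 0.0379% in MS5. Generation changed with the run, so the ears do not separate the run from the animals, and ear DNA was purified with a kit while cells were lysed with proteinase K.

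Edited cells of the same runs give the place of the controls among the samples they serve. In NS1 the 3 controls (0.0235% to 0.0240%) lay below all 39 edited samples, whose lowest, an Nd2 sample (a complex I subunit gene) at 0.0698%, was 2.91 times the highest control. In MS1 and MS2 the lowest edited samples were Nd3 pair 31 at 0.142% and Nd6 pair 65 at 0.182%, 2.31 and 1.50 times the control of the run. In MS4 and MS5 the controls and the edited samples overlapped. Of 12 edited samples of MS4, 10 lay above the highest control and 2 within the range of the controls, the lowest being the third Nd3 sample at 0.159%. Of 48 edited samples of MS5, 41 lay above the highest of the 6 controls and 7 within their range. The lowest of them, a Tandem-HHR sample of Cytb (the complex III subunit encoded by mtDNA), had 0.155%, between the first and second Tandem control. The 48 pool transient Tandem, Tandem-HHR and stable samples, and no control is labelled Tandem-HHR. The 12 transient Tandem samples among them lay above all 3 transient Tandem controls, the lowest at 1.11 times the highest of these. None of the edited samples lay below the lowest control of its run.

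**Figure D4:**
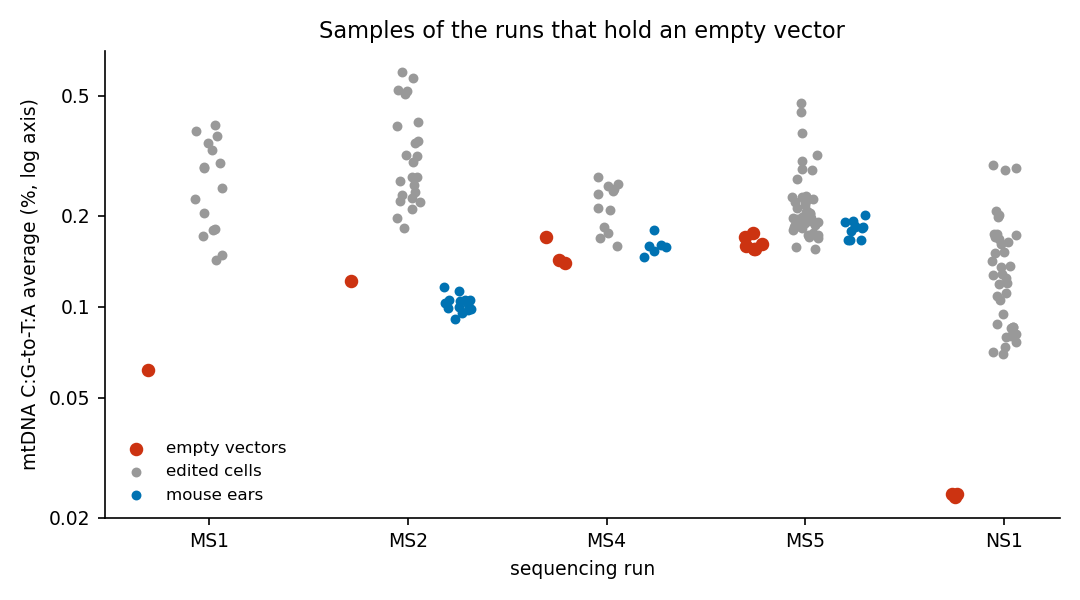
Average C:G-to-T:A percentage (y axis, log scale) of all mtDNA samples in the 5 runs that held an empty-vector control (x axis). Red points are controls, grey points edited cells and blue points mouse ears. The controls lie apart from the edited cells in MS1, MS2 and NS1 and overlap with them in MS4 and MS5.

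The level of the background set how large a fold a given excess could reach. An excess of 0.1 percentage points over the mean control corresponds to 1.64-fold in the Tandem experiment, 1.66-fold in 2-plasmid-HHR and 5.19-fold in 2-plasmid. Over the screening controls, the same excess is 1.82-fold in MS2 and 2.62-fold in MS1.

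Among the transient formats with replicates, the choice of a single control moved the folds least in NS1 and most in MS4, in proportion to their size. The swap between the MS1 and MS2 screening controls moved the screening folds more, by the ratio of 1.97. The 12 edited Tandem samples had a median fold of 1.48, 1.48 and 1.43 over the first, the second and the third control, and all 12 lay above each of them. The 12 edited 2-plasmid-HHR samples had a median fold of 1.61, 1.58 and 1.32 over the 3 controls, and their mean control gave 1.49. All 12 lay above the first and the second control, and 10 lay above the third. The 39 edited 2-plasmid samples had a median fold of 5.30, 5.30 and 5.41, with all 39 above each control.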

How the data were processed

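The off-target values, in percent as deposited, are C:G-to-T:A frequencies that the authors averaged over the mtDNA. Long-range PCR products covering the mtDNA were made into Nextera XT libraries and read on MiSeq or NovaSeq instruments. Reads were trimmed with Trim Galore, aligned to chromosome M of GRCm38 with Bowtie 2 and piled up with SAMtools for VarScan, according to the methods and the submitters' processing notes. Which positions enter the average is not given in the sources used here, nor is a filter on low frequencies, either of which could change the background. Coverage, deposited as a mean depth per sample, was not normalized.

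Values were used without filter or transformation. No sample that stands in several tables differed between them (0 of them). Over all tables, 13 entries matched no sample record, 4 of them controls. Means, SDs and exact two-sided permutation tests were computed with python 3.11.15, numpy 2.4.6 and scipy 1.17.1, figures with matplotlib 3.10.9, at a threshold of 0.05. The permutation tests were tested on simulated data. All controls are named; of edited samples, the lowest of a run. Members, comparisons and alternatives (scale, summary, left-out replicates, block, coverage, groups) were chosen with earlier results of these data known.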

Additional observations from a re-analysis of the deposited data

Results flagged for a closer look

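The control table held 4 entries of the Tandem empty vector that matched no sample record and entered no test. They are given as values only.

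Of these, 3 are described in the table as transient Tandem at 7 d and come from run NS1. Their off-target percentages were 0.0348%, 0.0342% and 0.0345%, at a coverage of 58972, 55095 and 54419. All 3 lay above the 3 2-plasmid controls of the same run, at 1.46, 1.44 and 1.45 times their mean of 0.0238%. They lay below the 3 Tandem controls of MS5, for which the table gives the same description, and the mean of those controls was 4.51, 4.58 and 4.55 times the single entries. Whether they are other libraries of the same cells is not stated in the sources used here.

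The fourth entry is described as stable Tandem at 49 d and comes from run MS5. It had 0.180% at a coverage of 126, which is 0.0051 percentage points above the highest stable control, that of 35 d. The expected counting error was 0.0049 for this entry alone and 0.0027 for the 35-d control alone. That of their difference is larger than either and was not computed. The 49-d entry stood at 1.15 times the mean of the transient Tandem controls.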

How the results depend on the processing

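Of 60 alternative settings over all comparisons, 0 reversed a direction, 7 changed the side of the threshold, and 3 moved a value that has no test by more than the SD of the Tandem controls. For the 16 settings of the 3-format comparison a reversal was not possible, as a share of the sum of squares has no sign. Nor could left-out replicates reverse the pairs with the 2-plasmid format, whose values do not overlap. The difference among the 3 formats kept p at 0.0036 to 0.036 (exact permutation test) when single replicates were left out, with 97.7% to 99.9% of the sum of squares between formats. On ranks it had p = 0.05 (exact permutation test), on the threshold itself, with a share of 70%. With the replicate number as a replicate block it had p = 0.056 at an unchanged share of 98.3% (exact permutation test, 216 permutations). Deviations of same-numbered controls correlated at -0.9996 and -0.9993 for the pairs with the 2-plasmid format and at 0.998 for the other. With 3 numbers, these correlations cannot show whether same-numbered samples are paired. Without the 2-plasmid group the share was 9.11% (p = 0.50). With the 2 screening controls added to 2-plasmid, the differences became 0.106 for Tandem and 0.0997 for 2-plasmid-HHR (both p = 0.036, exact permutation test), since 56 splits allow a smaller p. Left-out replicates gave 0.131 to 0.134 for Tandem minus 2-plasmid, 0.117 to 0.132 for 2-plasmid-HHR minus 2-plasmid and 0.00074 to 0.0160 for Tandem minus 2-plasmid-HHR. Stable minus transient Tandem was 0.0153 with medians and 0.0079 to 0.0157 without single samples. The correlation with coverage was -0.587 on log10 coverage (p = 0.14), -0.682 without the 2 farthest samples (p = 0.13) and -0.319 within MS5 (p = 0.55). The causes of these changes were not tested. Swapping runs was not run, as no sample with a record had values from several runs. Nor was the relation without the stable line, which leaves 5 controls. The 3 transient Tandem entries of NS1 with no sample record, at 0.0342% to 0.0348%, entered none of the 60 settings. They lay below the lowest 2-plasmid-HHR control, at 0.140%, while the Tandem controls of MS5 had the higher mean. The count of 0 reversals thus covers samples with a record only. Precision is limited by 3 samples a format and 1 a stable day, and by coverage in MS5.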

Other observations

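The tables give the mouse ear samples a second value, the same average with a cutoff at 1%, which the controls do not have. How the cutoff was applied is not stated. With it, the ear samples of MS5 had 0.0361% to 0.0549% (median 0.0379%, n = 11), those of MS4 0.0391% to 0.0440% (median 0.0419%, n = 6) and those of MS2 0.0411% to 0.0514% (median 0.0444%, n = 14). The order of the medians over the runs was the reverse of that without the cutoff, 0.183%, 0.158% and 0.103% in MS5, MS4 and MS2, and the ranges with the cutoff overlapped between all 3 runs. Generation changed with run here as well, and no test was made.

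Run MS3, with 12 editor pairs at a coverage of 5710 to 18082, held no control. Its lowest sample, Nd4l pair 62, had an off-target percentage of 0.228%.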
